A study of Homo sapiens with 3 samples.

Results

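The genes described here are 39 genes of DNA replication and of the step from G1 into S phase, measured in KYSE150 cells, an established line from a human oesophageal squamous carcinoma. They were chosen by name, as the MCM helicase, its loaders and activators, the replicative polymerases, the sliding clamp, nucleotide enzymes, cyclin E, E2F1 and the chromatin factors of the fork. All 39 had a probe set paired with 1 gene symbol, of 18132 genes with such a probe set, and each was read from its brightest probe set. All 39 also lay above the filter on dim genes (a mean of log2 5.27 over the 3 arrays), as did 12232 genes in all. The dimmest of them, MCM5, had a mean of 6.05.

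The study had 3 groups of the same line, and each group was 1 array. The control cells received the vector, and the others received LOXL2 WT or LOXL2 delta72, both in the expression plasmid pcDNA3.1. LOXL2 is lysyl oxidase like 2, and the labels do not explain what delta72 lacks or changes. RNA was taken 48 h after transfection in all groups, which were grown in the same medium with serum. The differences therefore compare single arrays, without replicates and without a test, and "higher" and "lower" below refer to these arrays only.

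Replication is prepared in G1, when ORC, CDC6 and CDT1 load the MCM helicase onto origins. In S phase, CDC45 and the GINS complex join the helicase, and MCM10 helps to start it. Primase and polymerase alpha then begin each strand, RFC loads the PCNA clamp, and polymerases delta and epsilon extend the DNA. Most of these genes are known targets of E2F transcription factors, which are released from the retinoblastoma protein by cyclin D and cyclin E kinases. In squamous carcinoma, as in other tumours, their messages are used as markers of cycling cells.

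The promoters of the genes are shown first, because E2F binding sites are the best known feature that they share. RefSeq promoter windows (GRCh38.p14, 250 bases before to 50 after each start) were found for 35 of the 39 genes, in 45 windows, and none was matched for MCM4, MCM5, CCNE2 and POLD3. The E2F motif was searched as the 4 strings TTTCCCGC, TTTCGCGC, TTTGCCGC and TTTGGCGC, on both strands, where matches may overlap. It stood in 20 of the 45 windows (44.4%) and in 3.31% of all 35116 windows. By gene, 19 of the 35 had a match. CDC6 was chosen for printing as the member with the highest difference from control with both forms. Among the members with a match, MCM6, GINS2 and PCNA had the lowest differences of delta72 from control, at -0.31, -0.23 and -0.19. For these 4 members the window with a match is printed, which for PCNA is 1 of 2 windows. Each runs from 160 bases before the start to 20 after it, 5′ to 3′ on the strand of the gene, and capitals mark the E2F matches.
CDC6, chr17:40287719-40287898, plus strand: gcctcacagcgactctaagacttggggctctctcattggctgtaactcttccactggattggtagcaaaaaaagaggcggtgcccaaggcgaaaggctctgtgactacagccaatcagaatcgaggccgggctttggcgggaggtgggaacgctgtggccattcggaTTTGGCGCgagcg
MCM6, chr2:135876424-135876603, minus strand: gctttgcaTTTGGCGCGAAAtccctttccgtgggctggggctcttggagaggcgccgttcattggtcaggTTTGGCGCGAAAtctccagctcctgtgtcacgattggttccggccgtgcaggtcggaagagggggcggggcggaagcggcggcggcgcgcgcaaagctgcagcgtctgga
GINS2, chr16:85688935-85689114, minus strand: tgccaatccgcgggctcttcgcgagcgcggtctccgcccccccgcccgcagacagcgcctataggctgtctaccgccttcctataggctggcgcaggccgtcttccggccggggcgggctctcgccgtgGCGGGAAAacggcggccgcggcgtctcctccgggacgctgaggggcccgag
PCNA, chr20:5126603-5126782, minus strand: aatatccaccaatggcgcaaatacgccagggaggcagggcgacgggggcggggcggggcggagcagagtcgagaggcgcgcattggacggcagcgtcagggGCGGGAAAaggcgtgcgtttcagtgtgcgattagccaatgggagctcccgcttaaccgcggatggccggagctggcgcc

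In MCM6 the motif matched 4 times in 2 stretches, because matches on both strands overlap in each. In CDC6 it matched just after the start, at position 8, and in GINS2 and PCNA before it, at positions -31 and -59. CCAAT, the core of the NF-Y site, stood in 27 of the 45 windows and in 34.6% of all. TTTGAA, the core of an element known from promoters of mitosis genes, stood in 1 of the 45 and in 15.2% of all. A match is a description of letters and not evidence that a factor was bound in these cells.

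**Figure D1:**
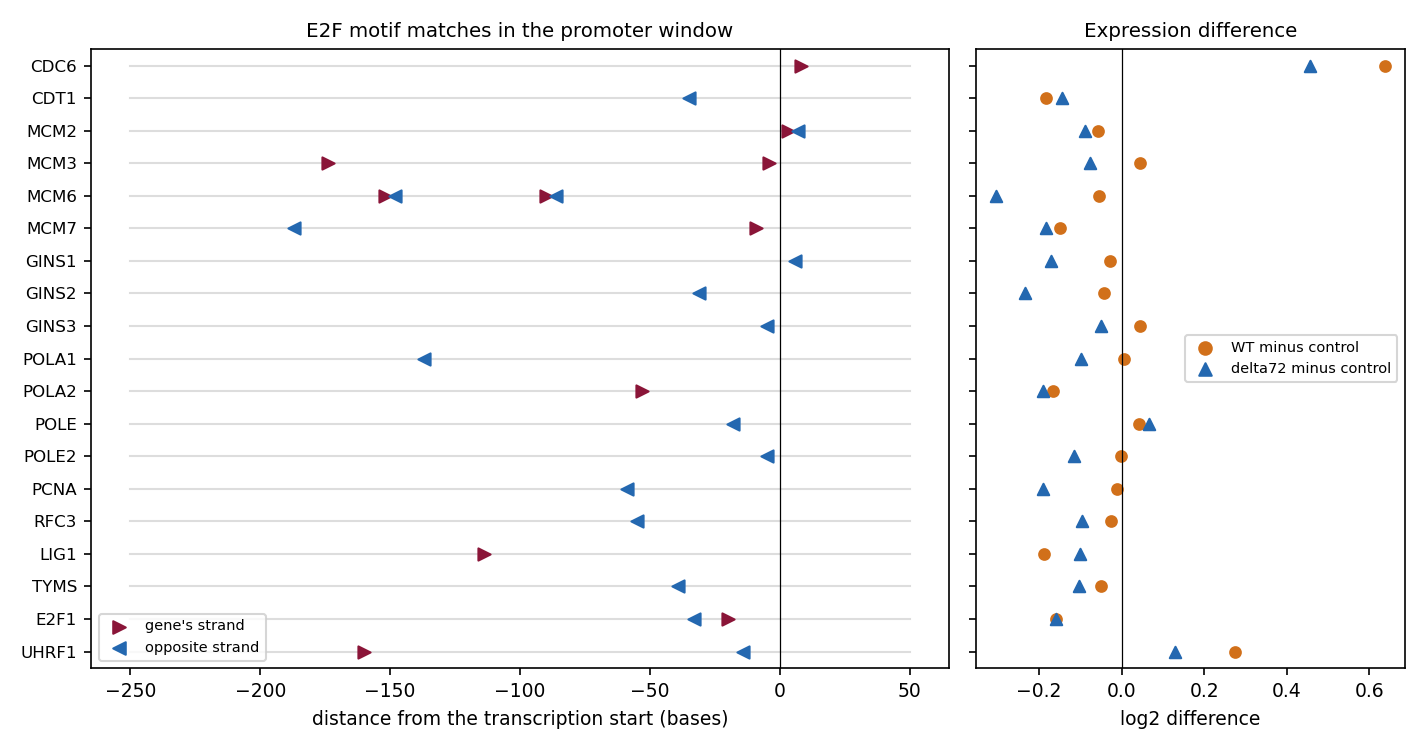
Left, position of each E2F motif match relative to the transcription start (bases) for the 19 genes with a match, with the strand of the match by colour and with both windows of UHRF1 drawn on 1 line. Right, the log2 difference of each gene from the vector control with LOXL2 WT (circles) and LOXL2 delta72 (triangles): most triangles lie left of 0, and CDC6 stands far to the right with both forms.

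The arrays were checked before the members were read. The level of LOXL2 was log2 7.46 in the control, 14.05 with WT and 14.06 with delta72. All 7 measured markers of squamous epithelium lay above the filter, from SOX2 at 5.63 to 6.06 up to E-cadherin (CDH1) at 11.91 to 11.95. KRT14 read 7.76 in the control, 7.08 with WT and 7.10 with delta72. The listed squamous markers KRT6A, KRT17 and TP63 had no probe set paired with 1 gene symbol. Of the markers of other cells, 1 of 6 for fibroblasts, 2 of 5 for leukocytes and 3 of 4 for endothelium lay above it. Apart from CD68, at 8.44 to 8.97, these read at most 6.08, and the leukocyte marker PTPRC read 2.83 to 3.08. The 7 hybridisation controls, bacterial transcripts that are added in fixed amounts, were all lower on the delta72 array than on the control array, by a median of -0.25, and lower than on the WT array by a median of -0.090. They were lower with WT than in the control by a median of -0.16. Their part in the differences of the members was not tested.

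Precision could be read only from probe sets of the same gene. Their differences had a pooled SD, over 7163 genes, of 0.17 between WT and control, 0.15 between delta72 and control and 0.11 between delta72 and WT. This spread holds no error between cultures or hybridisations, and no error can be given for a median over the members, which share their arrays. Whether probe sets of 1 gene share probes was not checked, so their agreement cannot be taken as that of independent readings. For counts, a gene was called higher or lower when it differed by at least log2 0.32, and a stricter size of 1.5-fold was counted as well. The messages come from a whole culture, so a smaller share of cells in S phase and less message in each cell cannot be told apart.

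As a group, the replication genes lay close to the vector control with LOXL2 WT. Their median log2 difference was -0.0017, against -0.0094 over all 12232 genes, and 20 of 39 were below 0 (51.3%, against 51.7% of all genes). Of their 84 probe sets above the filter, 49 were below 0 (58.3%, against 51.1% of the probe sets of all genes). The spread around that median was wide in a few genes. CDC6 and the cyclin gene CCNE2 were more than 1.5-fold higher, MCM10 1.32-fold higher, and MCM5 and POLD1 were 1.28-fold and 1.26-fold lower. Thus 3 of 39 members were called higher (7.69%, against 9.92% of all genes) and 2 lower (5.13%, against 7.12%), shares near the background. At 1.5-fold, 2 were higher (5.13%, against 1.85% of all genes) and 0 lower (0.867%).

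With LOXL2 delta72 the genes were lower than in the control as a group, by a small amount. The median was -0.097, against 0.0 over all genes, and 29 of 39 were below 0 (74.4%, against 49.8% of all genes). The lowest member was MCM6, at -0.31 or 1.24-fold. In this comparison 0 members were called lower (4.72% of all genes) and 2 higher, CDC6 and CCNE2 (5.13%, against 7.52% of all genes). At 1.5-fold 0 were lower (0.499% of all genes) and 0 higher (1.28%). The hybridisation controls were lower between the same arrays by more than the members' median, from -0.19 to -0.32.

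Between both forms, where the control array plays no part, the members were lower with delta72 than with WT. The median was -0.078, against 0.0013 over all genes, and 30 of 39 were below 0 (76.9%, against 49.3%). The count of called members was 0 in either direction (0.981% of all genes lower, 1.55% higher), and likewise at 1.5-fold (0.0409% and 0.180%). The hybridisation controls were lower by -0.032 to -0.13, which spans the members' median. The 3 GAPDH control probe sets were higher by 0.073 to 0.090, whereas they were lower than in the control by -0.10 to -0.11 with WT and by -0.018 to -0.037 with delta72. Among the 5947 genes at least as bright as the members' lower quartile (log2 8.05) the median was -0.0080, with 53.1% below 0, and the part of brightness in the members' values was not tested.

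**Figure D2:**
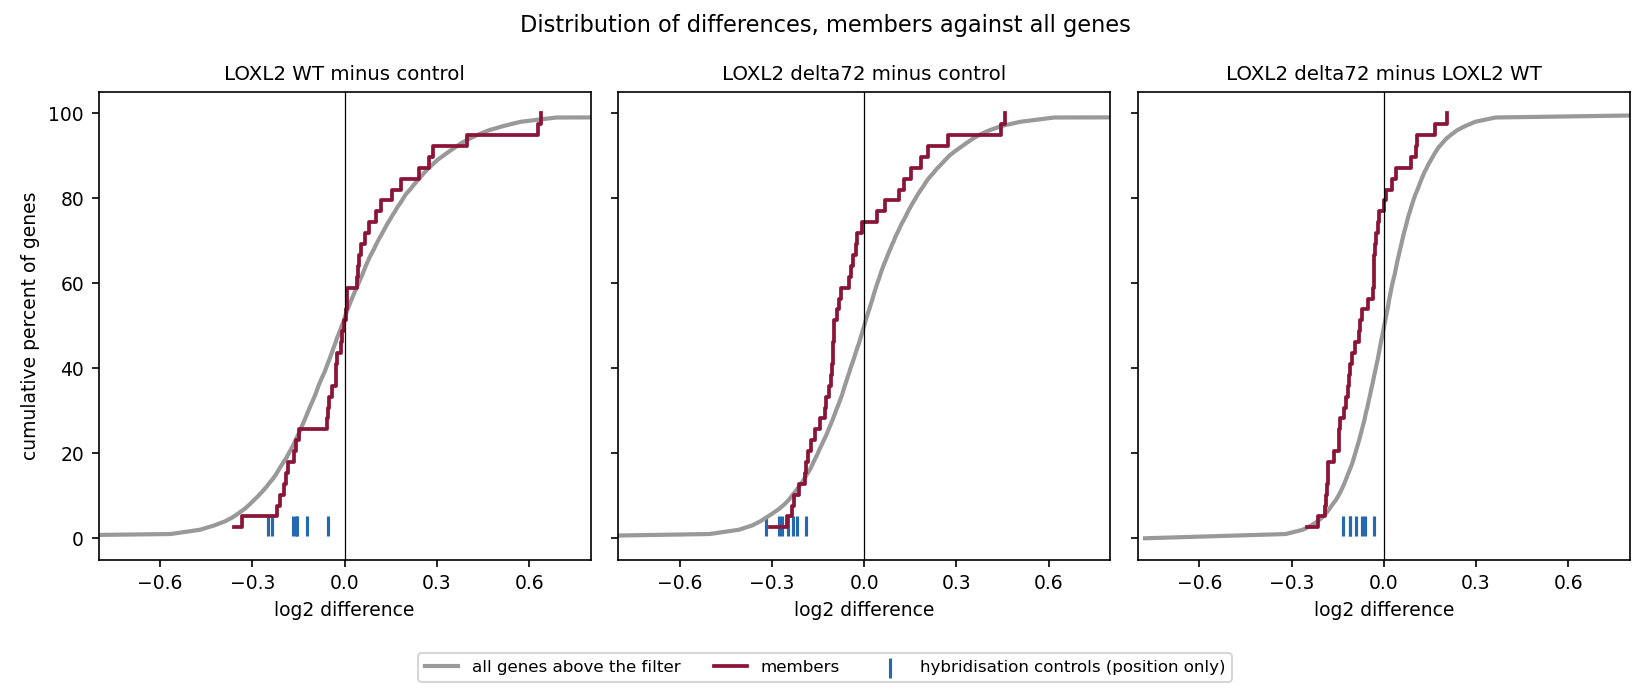
Cumulative percent of genes against the log2 difference in each of the 3 comparisons, for the 39 members (red steps) and the 12232 genes above the filter (grey), with the 7 hybridisation controls as blue ticks whose height has no meaning. The curves coincide near 0 for WT minus control, and the red steps run left of the grey curve in both other panels, where the members' medians are -0.097 and -0.078.

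The order of the 3 arrays shows the same data in another way. The delta72 array was the lowest of the 3 in 22 of 39 members (56.4%, against 24.7% of all genes), the WT array in 7 (17.9% against 35.2%) and the control array in 10 (4896 of the 12232 genes). The 7 include E2F1, which read the same value on the WT and delta72 arrays. The delta72 array was the highest in 2 members, CCNE1 and POLE (5.13% against 25.3%), the WT array in 17 (43.6% against 32.8%) and the control array in 20 (51.3% against 41.9%). In 9 members the WT array was above the control and the delta72 array below it, and in 0 members was it the other way round.

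**Figure D3:**
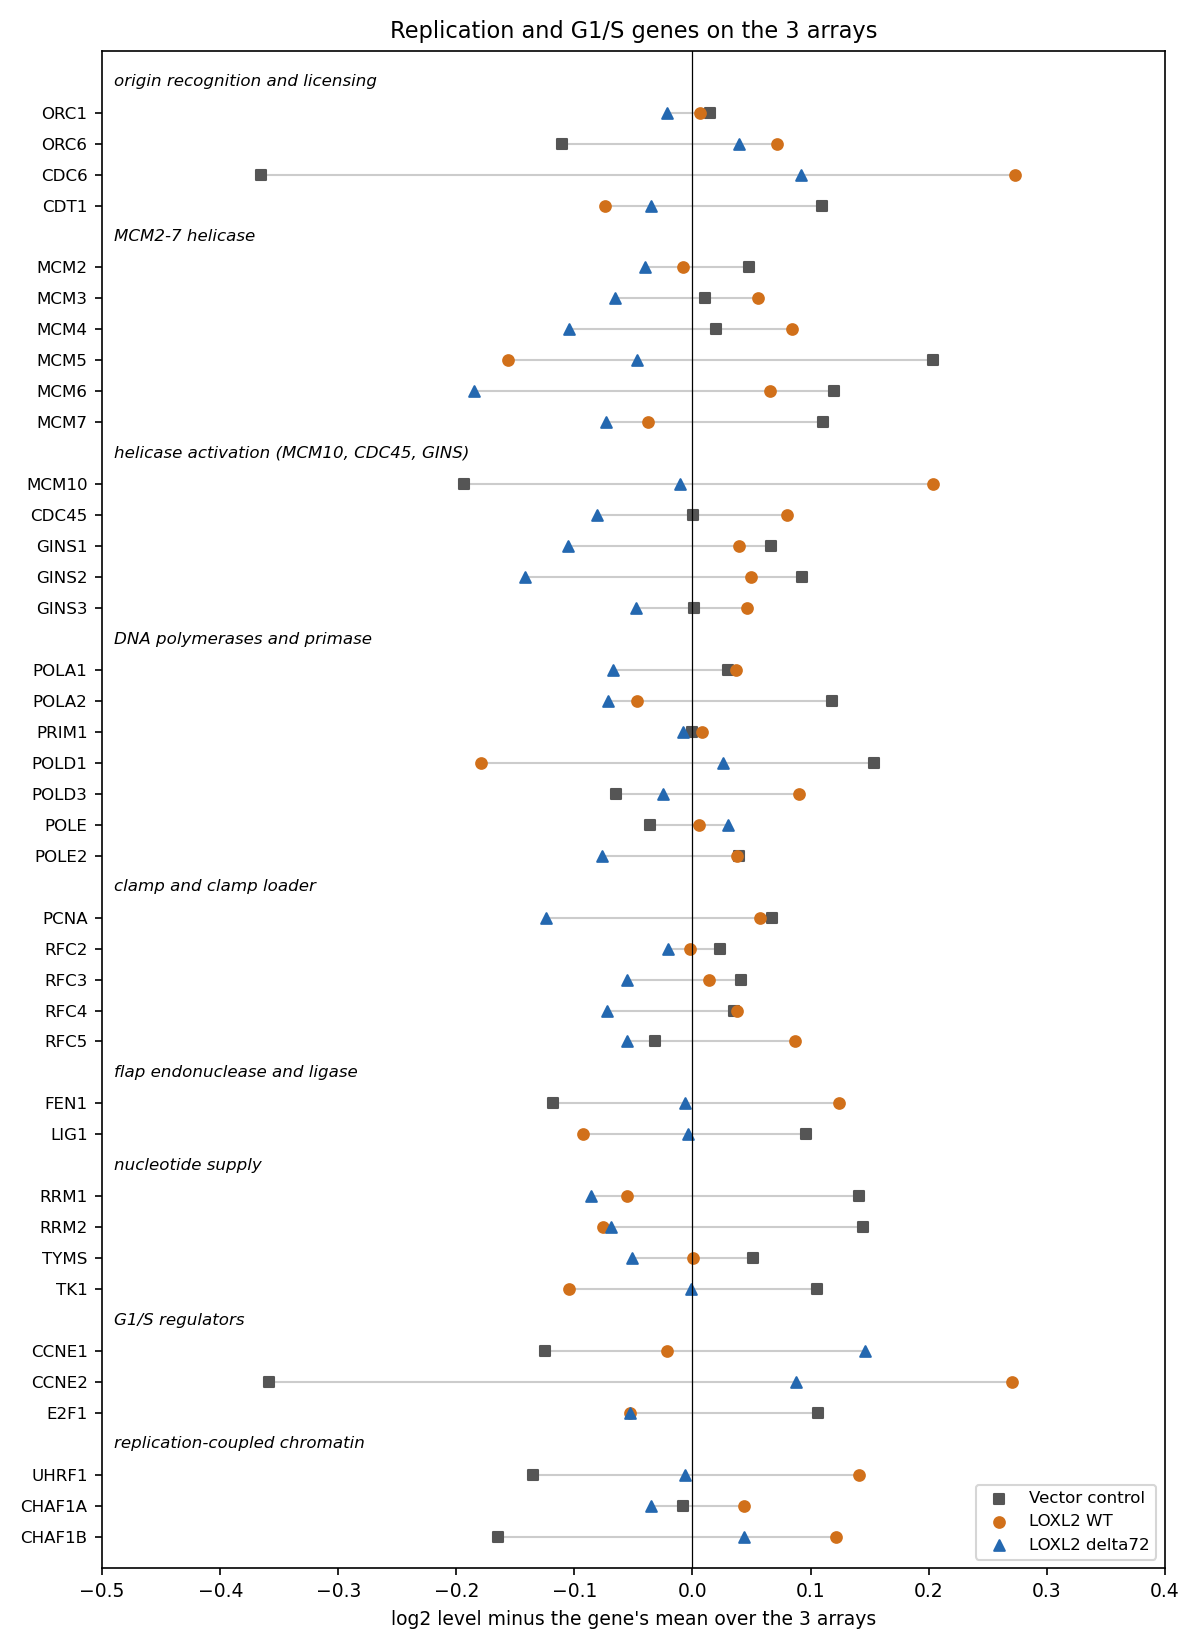
Log2 level of each of the 39 members on the vector control (squares), LOXL2 WT (circles) and LOXL2 delta72 (triangles) arrays, minus the mean of the gene over the 3 arrays, grouped by role. The clamp, GINS and most MCM genes have their triangle at the left end, nucleotide enzymes have the control square at the right end, and CDC6 and CCNE2 span the widest range, with the control at the left end.

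The loaders of the helicase did not share a direction. CDC6, the ATPase that brings the helicase to origins together with CDT1, read 9.24 on the control array, 9.87 with WT and 9.69 with delta72. The control value was the lowest, and the differences were 0.64 (1.56-fold) and 0.46 (1.37-fold). Its other probe set, which read 8.49, 8.53 and 8.49, did not share this, at 0.040 and 0.00050, so the call of CDC6 rests on 1 probe set of 2. CDT1, its partner in loading, read 8.33, 8.15 and 8.18, with the control the highest. All 3 probe sets of CDT1 were lower with both forms, from -0.18 to -0.36 with WT and from -0.15 to -0.33 with delta72. Of the origin recognition complex, ORC1 varied by 0.037 over the 3 arrays, and ORC6 read 9.39, 9.57 and 9.54, lowest on the control array.

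The MCM2-7 genes encode the ring that unwinds the DNA, and all 6 were lower with delta72 than in the control. Their median was -0.15, and over all their probe sets above the filter 19 of 20 were below 0. With WT, 4 of the 6 were below 0, with a median of -0.055. MCM6 read 9.002 on the control array, 8.95 with WT and 8.70 with delta72, so the delta72 array alone was low. A second MCM6 probe set above the filter read 5.61, 5.86 and 5.74 and was higher with delta72 than in the control (0.12), but it too was lower with delta72 than with WT (-0.12).

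MCM7 read 12.04, 11.89 and 11.86, and its 4 probe sets were lower with both forms, from -0.15 to -0.44 with WT and from -0.18 to -0.33 with delta72. MCM5, with 1 probe set, read 6.25, 5.89 and 5.998, and was the lowest member with WT (-0.36). The probe sets of MCM4 did not share a sign with WT. The brightest one read 11.24, 11.31 and 11.12, which is 0.065 above control with WT, while the other 4 were lower, down to -0.29. With delta72 all 5 were lower than in the control, from -0.11 to -0.40, and all 5 were lower than with WT. MCM2 and MCM3 stayed within 0.089 and 0.12 over the 3 arrays, each lowest on the delta72 array.

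The factors that turn the loaded ring into an active helicase were all lower with delta72 than with WT. All 5 had their delta72 value below the WT value, by a median of -0.16, and 8 of their 10 probe sets did. MCM10 read 8.65, 9.05 and 8.83, lowest on the control array, and its 3 probe sets were higher with both forms, by 0.28 to 0.52 with WT and 0.18 to 0.31 with delta72. GINS2 read 8.93, 8.89 and 8.70, and only the delta72 array was low, at -0.23 from control (1 probe set). GINS1 had the same order at 10.05, 10.02 and 9.88, while its second probe set was at 0.051 from control with delta72. CDC45, which links the helicase to GINS, read 7.48, 7.56 and 7.40, and GINS3 7.87, 7.91 and 7.82, and both were highest with WT. The probe sets of CDC45 ran from -0.082 to 0.087 for delta72 minus control.

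Among the 7 polymerase and primase genes, 5 were lower with delta72 than in the control, with a median of -0.098, and 3 were lower with WT, with a median of 0.0067. POLD1, the catalytic subunit of polymerase delta, read 8.57, 8.23 and 8.44, so the WT array was low. It was the highest member for delta72 minus WT, at 0.21 (1 probe set). POLA2, a regulatory subunit of polymerase alpha, read 7.98, 7.82 and 7.79, highest on the control array. POLD3 was lowest on the control array, at 7.82 against 7.98 and 7.86. The catalytic subunit of polymerase alpha, POLA1, and POLE2 of polymerase epsilon were within 0.0067 of control with WT and at -0.098 and -0.12 with delta72. PRIM1, the primase, and POLE varied least of this group, by 0.016 and 0.066 over the 3 arrays.

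PCNA, the clamp that tethers polymerases to DNA, read 11.48 on the control array, 11.46 with WT and 11.28 with delta72. The control and WT arrays differed by -0.010 and the delta72 array was lower, by -0.19 against control and -0.18 against WT. The 4 clamp loader genes RFC2, RFC3, RFC4 and RFC5 lay in the same direction, at -0.024 to -0.11 against control. All 9 probe sets of the clamp and its loader above the filter were lower with delta72 than in the control, and all 9 were lower than with WT. With WT the 5 genes lay between -0.027 and 0.12 from control, and 7 of the 9 probe sets were below 0. The 0.12 was RFC5, whose other probe sets above the filter were at -0.038, -0.17 and -0.068. PCNA, RFC2 and RFC4 each had 1 probe set above the filter, and the dimmer ones of RFC4 were at 0.36 and 0.38 with delta72.

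FEN1 and LIG1, which trim and seal Okazaki fragments, went opposite ways on the probe sets used. FEN1 read 10.26, 10.50 and 10.37 and was lowest on the control array, whereas LIG1 read 8.50, 8.31 and 8.40 and was highest there. All 6 probe sets of LIG1 were lower with both forms, with a mean of -0.23 ± 0.047 (SD over probe sets) for WT and -0.14 ± 0.034 for delta72. All 6 were higher with delta72 than with WT, by 0.055 to 0.14. The 3 probe sets of FEN1 were lower with delta72 than with WT by -0.13 each. Against control they ran from 0.040 to 0.24 with WT. With delta72 they ran from -0.090 to 0.11, with 1 of the 3 below 0, so they did not share a sign.

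**Figure D4:**
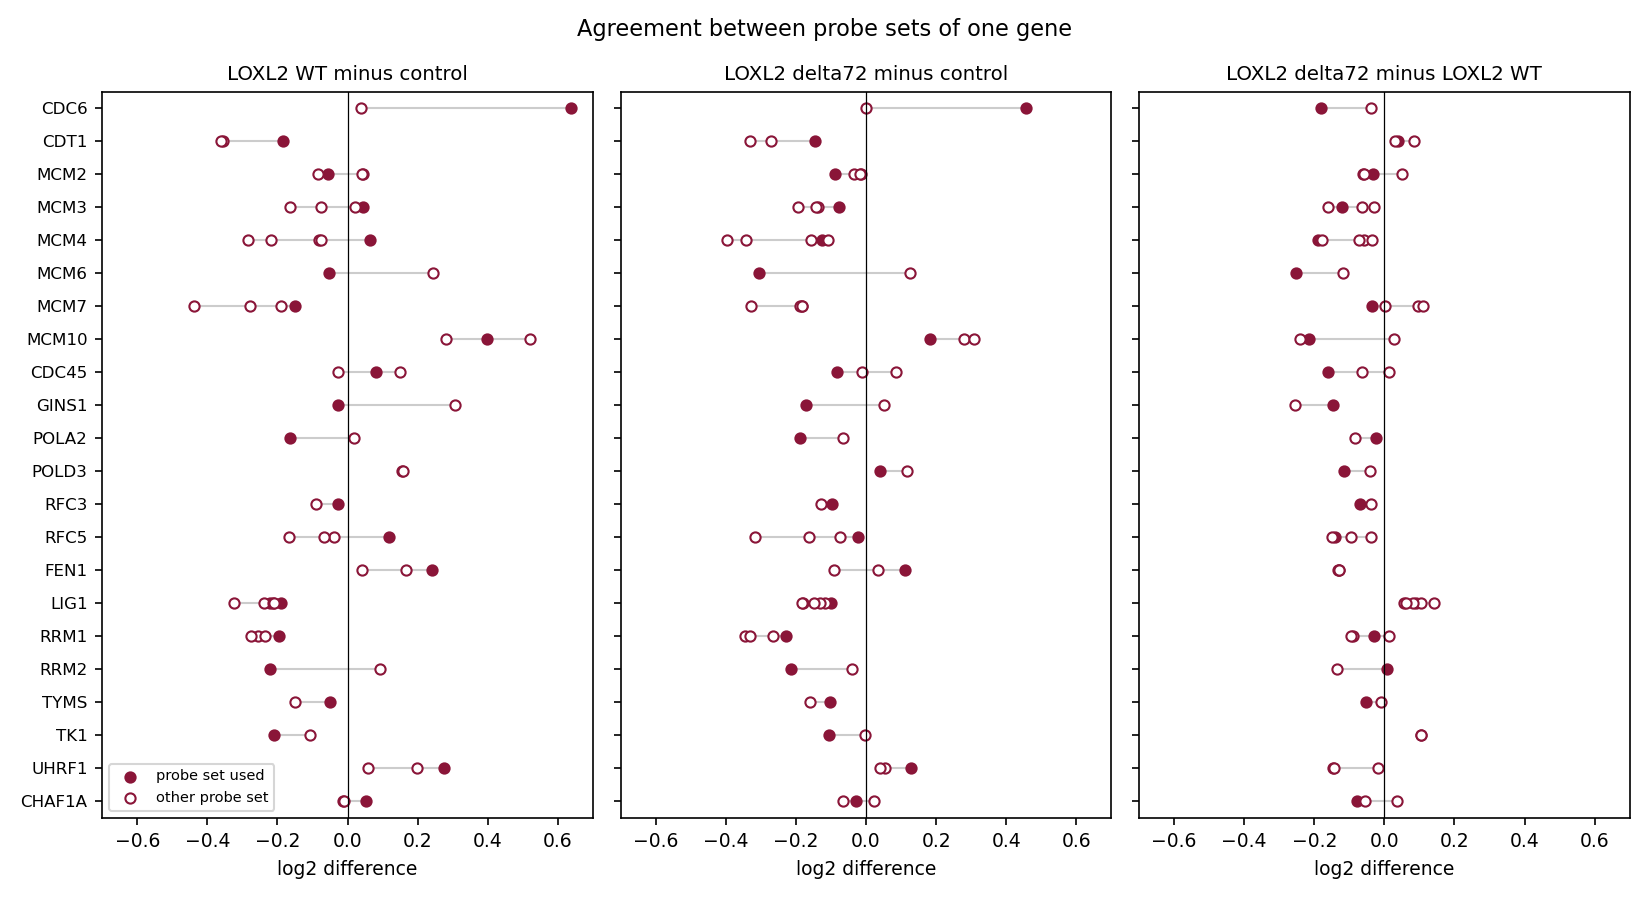
Log2 difference of every probe set above the filter for the 22 members with more than 1, in the 3 comparisons. Filled points are the probe sets used for the gene and open points the others, joined by a grey line: LIG1, RRM1, MCM7, CDT1 and MCM10 keep to 1 side of 0 against the control, whereas the probe sets of CDC6, MCM6 and GINS1 lie far apart.

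The 4 genes of nucleotide supply were all lower with both forms than in the control. Their medians were -0.20 with WT, -0.16 with delta72 and -0.012 between both forms. RRM1, the large subunit of ribonucleotide reductase, read 10.99, 10.80 and 10.77, and its 4 probe sets averaged -0.24 ± 0.034 (SD) with WT and -0.29 ± 0.056 with delta72. RRM2, the small subunit that is made in S phase, read 10.88, 10.65 and 10.66, but its second probe set was at 0.093 with WT and at -0.041 with delta72. Thymidine kinase TK1 read 9.69, 9.49 and 9.59, highest on the control array, and thymidylate synthase TYMS read 11.09, 11.04 and 10.99. Both differences share the control array.

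The 3 regulators of the G1/S step each had another order of the arrays. CCNE2, cyclin E2, read 6.37 on the control array, 6.996 with WT and 6.81 with delta72. The control was the lowest, at 1.55-fold and 1.36-fold below the others, and a dimmer probe set under the filter had the same order, at 0.42 and 0.34. CCNE1, cyclin E1, read 6.57, 6.68 and 6.84 and was highest with delta72 (0.27), while its dimmer probe set was lower, at -0.21. E2F1 read 6.63 on the control array and 6.47 on both others, and thus was lower by -0.16.

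The fork's 3 chromatin factors read above the control with WT, by 0.052 to 0.29, and 0 of the 3 were called. UHRF1, which guides maintenance of DNA methylation behind the fork, read 9.20, 9.47 and 9.32, with its 3 probe sets above 0 with both forms. CHAF1B, a subunit of the histone chaperone CAF-1, read 7.06, 7.34 and 7.26, lowest on the control array, although a probe set below the filter was at -0.54 with WT. CHAF1A, its partner, varied by 0.079 over the 3 arrays, and its other probe sets were at -0.012 and -0.011 with WT. All 3 genes were lower with delta72 than with WT, from -0.078 to -0.15.

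Members with an E2F match in their promoter were set beside those without one. The 19 with a match had medians of -0.027 with WT, -0.10 with delta72 and -0.094 between both forms, and 13, 16 and 15 of them were below 0. The 16 with a window but no match had medians of 0.030, -0.032 and -0.031, with 6, 11 and 12 below 0. Both sets held members on either side, from CDC6 at 0.64 with a match to POLD1 at -0.33 without one, and the difference between the sets was not tested.

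Other genes of the pathway were read from lists drawn up by function, and 71 of the 75 lay above the filter. Each gene of these lists was read from its brightest probe set, and agreement with its other probe sets was not examined. With WT, 35 of the 71 were below 0 (51.7% of all genes) and the median was 0.0061. By the same size, 9 were called higher (12.7%, against 9.92% of all genes) and 7 lower (9.86%, against 7.12%). With delta72, 40 were below 0 (49.8% of all genes), with a median of -0.048. Here 5 were called higher (7.04%, against 7.52% of all genes) and 7 lower (9.86%, against 4.72%). Between both forms 51 were below 0 (49.3% of all genes), with a median of -0.060. In that comparison 0 were called in either direction (0.981% of all genes lower, 1.55% higher). Among the 25 other origin, helicase and fork genes, 19 were lower with delta72 than with WT, against 49.3% of all genes. Of the 12 other nucleotide and chromatin genes above the filter 11 were, and of the 27 other G1/S control genes 18 were. The 7 other polymerase and clamp loader subunits leaned the other way, with 3 below 0 and a median of 0.041.

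The widest differences in these lists were in genes that control entry into S phase. CDC25A, the phosphatase that activates cyclin E kinase, read 7.60, 8.26 and 8.12, which is 0.66 and 0.52 above control. SKP2, the ubiquitin ligase subunit that degrades the inhibitor p27, read 8.53, 7.84 and 7.80, lower by -0.70 and -0.73. The control array was thus the lowest for CDC25A, as for CCNE2 and CDC6, and the highest for SKP2. The cyclin gene CCNA2 read 10.06, 9.66 and 9.48, down to -0.58 with delta72, and the inhibitor gene CDKN2B read 6.92, 7.51 and 7.42. E2F3, an activating E2F, was at 0.42 with WT.

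Among fork genes, the origin gene ORC5 read 8.48, 9.01 and 8.87 and TIPIN, a fork protection factor, 9.02, 9.38 and 9.36, both lowest on the control array. The nuclease and helicase gene DNA2 read 7.11, 6.77 and 6.70, highest there. PCLAF, a PCNA-binding factor, read 12.23, 11.87 and 11.82, lower by -0.35 and -0.41. POLD4, a small subunit of polymerase delta, was at -0.35 with WT and -0.22 with delta72.

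Genes of mitosis and replication-dependent histone genes, which belong to S phase, are given for comparison. For the 29 mitosis genes above the filter, the median was -0.15 with WT (23 below 0), -0.17 with delta72 (26 below 0) and -0.019 between both forms (17 below 0). The replication genes lay at -0.0017, -0.097 and -0.078 in the same comparisons. Of 13 replication-dependent histone genes listed, 8 lay above the filter, and their medians were 0.40, 0.69 and 0.12. Whether 3' arrays read the S-phase message of these histone genes was not tested, so the values are not a measure of S phase. The difference between these lists was not tested.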

How the data were processed

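Gene expression was measured on Affymetrix 3' arrays, 1 per condition, from 100 ng of total RNA per the labels' protocols. The authors deposited 1 table of log2 intensities for 49395 probe sets. The log2 scale was taken from the range of the values (2.07 to 14.56). Partek and Affymetrix Expression Console were used, per the submitters' processing notes. How arrays were normalized or background-corrected is not given in the sources used here. Array medians were 5.93 to 5.95.

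Probe sets were named from GEO's platform annotation: 44988 had 1 symbol, 1832 several and 2473 were not listed. The Entrez identifiers of all 39 members carried the same symbol in RefSeq. Each gene was read from the probe set with the highest mean, and genes were kept from the 40th percentile of non-control probe sets. Differences were counted by size, with no test, because no array was replicated. With 3 arrays, their number limits the precision. The counting was tested on simulated data, with changes larger than the calling size and noise taken from the difference between both forms. That check gives no precision for the small differences of the members. Members and lists were chosen with earlier results of these data known. Named were the 5 highest and 5 lowest members per comparison, the extremes of each role group, up to 4 genes of each other list, and LOXL2. Further values are given so that every member is covered. The alternatives were other array scaling, probe set choice, filters and fold. Python 3.11.15, pandas 2.3.3 and statsmodels 0.14.6 (lowess, fraction 0.4) were used.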

Additional observations from a re-analysis of the deposited data

How the results depend on the processing

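No paired analysis was possible because each condition has 1 array. Each of the 4 results per comparison (median, number below 0, numbers called higher and lower) was recomputed with arrays shifted to a common median of the genes above the filter (7.95 in the control, 7.99 with WT and 7.98 with delta72 before the shift), quantile normalization, lowess residuals, the median over probe sets, no filter and a filter at the 60th percentile, and the calls at 1.5-fold. Leaving out s_at and x_at probe sets was added after the data were seen, and left 35 members. Under these settings the median stayed below 0 for delta72 minus control (-0.13 to -0.071) and for delta72 minus WT (-0.090 to -0.054), with 26 to 29 and 27 to 32 members below 0. For WT minus control it ran from -0.043 to 0.0029, with 18 to 24 members below 0. The 24 came with a common median (59.4% of all genes below 0) and with the median over probe sets (53.7%). The shift to a common median moved the medians of the differences to -0.043 for WT minus control and -0.13 for delta72 minus control, but also moved those of all genes to -0.051 and -0.033. The median over probe sets gave -0.054 for delta72 minus WT. For WT, 1 member was called lower after lowess (6.67% of all genes) and 1 with the 60th percentile filter (6.50%). At 1.5-fold 0 were called lower (0.867%), and with the median over probe sets 3 were (5.07%), CDT1 (-0.36) being added. For delta72 against control, 1 member, MCM6 each time, was called lower with a common median (6.29% of all genes), quantile normalization (5.21%) and lowess (4.71%). Without s_at and x_at probe sets 2 were called lower (4.81% of all genes), MCM4 at -0.34 and RRM1 at -0.34. At 1.5-fold 0 were called higher (1.28% of all genes). No member called in the main results changed sign in these settings. As the median of all probe sets of the gene, dim ones included, CDC6 was at 0.34 with WT and 0.23 with delta72, where it was no longer called, while RFC4 was called higher at 0.36. The 2 called higher with delta72 (5.47% of all genes) were then CCNE2 and RFC4 in place of CCNE2 and CDC6. Members not called in the main results changed sign. Among them were CHAF1B (to -0.13 and -0.083), RFC5 (to -0.053 with WT), and GINS1 (to 0.051) and RFC4 with delta72. The cause of these shifts was not tested.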
